A study of Mus musculus with 4 samples.

Results

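The genes of oxidative phosphorylation were taken as every row of the authors' deposited tables whose symbol names a subunit of respiratory complexes I to IV or of ATP synthase (complex V), together with the 13 protein genes of the mitochondrial genome. The nuclear symbols were Nduf followed by a, b, c, s or v and a digit, Sdha to Sdhd, Cyc1, and every symbol that begins with Uqcr, Atp5, or Cox4, Cox5, Cox6, Cox7 or Cox8. This rule found 103 of the 27425 genes listed in either table, 90 of them nuclear and 13 mitochondrially encoded, and the genes of each genome are described apart. Of the nuclear rows, 87 were listed without and 89 with tetracycline, and 82 of those in each table had a mean of at least 50 normalized counts. A normalized count is a library's read count divided by that library's size factor, which corrects for sequencing depth.

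Oxidative phosphorylation takes place at the inner mitochondrial membrane. Complex I takes electrons from NADH and complex II takes them from succinate, and they pass through ubiquinone, complex III, cytochrome c and complex IV to oxygen, while complexes I, III and IV pump the protons whose return drives ATP synthase. Most subunits are encoded in the nucleus and imported, whereas a small, hydrophobic set is encoded by the mitochondrial genome and made on mitochondrial ribosomes. In the small intestine, stem cells at the crypt base and the cells that leave the crypt rely on mitochondrial respiration to different degrees. Tetracyclines block bacterial ribosomes and can also slow the related ribosomes of mitochondria, a step that RNA levels do not measure.

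The libraries came from crypts of the small intestine, the epithelial pits where stem cells divide, and the donors were C57BL/6J males 9 weeks old. The 4 groups, each with 1 labelled sample, were fed mice and mice fasted for 24 hours, without tetracycline and after 21 days of it. The design text gives as the purpose a comparison of feeding states after the antibiotic had depleted what it calls AKK. The crypts were released with EDTA and dissociated with trypsin, so each library is a bulk sample, in which fewer cells of a type and less RNA per cell cannot be told apart. The authors compared fasted with fed crypts in 1 table for each tetracycline state, and every direction below is fasted over fed, which was taken from how those tables are named. Log2 changes, standard errors and DESeq2 p-values given below are those of the authors' deposited tables unless recovered counts are named.

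Nuclear oxidative phosphorylation genes held 1.82% and the mitochondrially encoded genes 13.4% of all normalized counts without tetracycline, and 1.81% and 12.2% with it. Whole counts recovered from the deposited means showed 2 fasted and 2 fed libraries behind each table, named here library 1 and library 2 of a side by falling size factor, and these cannot be tied to the labelled samples. Size factors spanned 1.17-fold without tetracycline and 1.75-fold with it. All 7 epithelial markers had a mean of at least 50 in both tables, but markers of cells outside the epithelium were also read. Summed over the 4 listed of 5 erythrocyte markers, the libraries without tetracycline held 24428 and 34797 normalized counts when fasted and 87003 and 293090 when fed. With tetracycline the same sums were 72826 and 11663 when fasted and 127568 and 87095 when fed. The 6 lymphocyte markers summed to 5243 and 10132 (fasted) against 11532 and 14626 (fed) without tetracycline, and to 16646 and 2880 against 49732 and 12947 with it. The 6 myeloid markers summed to 1080 and 1479 (fasted) against 2053 and 3544 (fed), and the 6 stroma markers to 699 and 1280 against 1485 and 2542, without tetracycline. With it the myeloid sums were 2003 and 593 against 5578 and 2613, and the stroma sums 1760 and 725 against 3628 and 1444. Without tetracycline DESeq2 called 4 erythrocyte, 2 lymphocyte, 1 myeloid and 3 stroma markers lower in fasted crypts, and 0 of these lists with it, where 1, 3, 4 and 2 of them in the same order had an unadjusted p under 0.05. Of all genes tested, DESeq2 called 2.27% without and 0.6% with tetracycline, in either direction. Of those with a mean of at least 50, 6.97% and 3.41% were lower at an unadjusted p under 0.05. Of the epithelial lists without tetracycline, all 5 Paneth cell, 6 of 7 enterocyte and 4 of 5 crypt base stem cell markers were higher in fasted crypts, with 3, 1 and 0 called, the goblet cell markers were 2 higher and 3 lower with 1 called lower, and all 6 proliferation markers were lower with 0 called and 3 at an unadjusted p under 0.05. With tetracycline the counts higher were 5 of 5, 5 of 7, 4 of 5, 3 of 5 and 0 of 6 in that order, and the libraries of a side differed widely. There the 3 Paneth markers with recovered counts summed to 289831 and 53434 (fasted) against 68285 and 96699 (fed), the 5 stem cell markers to 108916 and 31253 against 53441 and 114642, and the 6 proliferation markers to 31083 and 20838 against 30484 and 48112. No listed marker of erythrocytes or lymphocytes was at 0, and the part of any of these cell types in the results below was not tested.

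Without tetracycline, nearly every nuclear gene of the module was lower in fasted crypts, without any single gene passing the test. In the authors' deposited table, a negative log2 change was given for 80 of 82 nuclear genes with a mean of at least 50, against 52.2% of all genes with that mean. Their median was -0.43, against -0.02 over all those genes, and the changes between the quartiles ran from -0.57 to -0.32. The median percentage change of the mean was -25.9%, and the median standard error of the log2 change was 0.27. By the authors' DESeq2 adjusted p, 0 of them were called, where 2.27% of all genes tested were called. At an unadjusted p under 0.05, 24 were lower and 1 was higher, against 6.97% and 5.31% of all genes with a mean of at least 50.

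**Figure D1:**
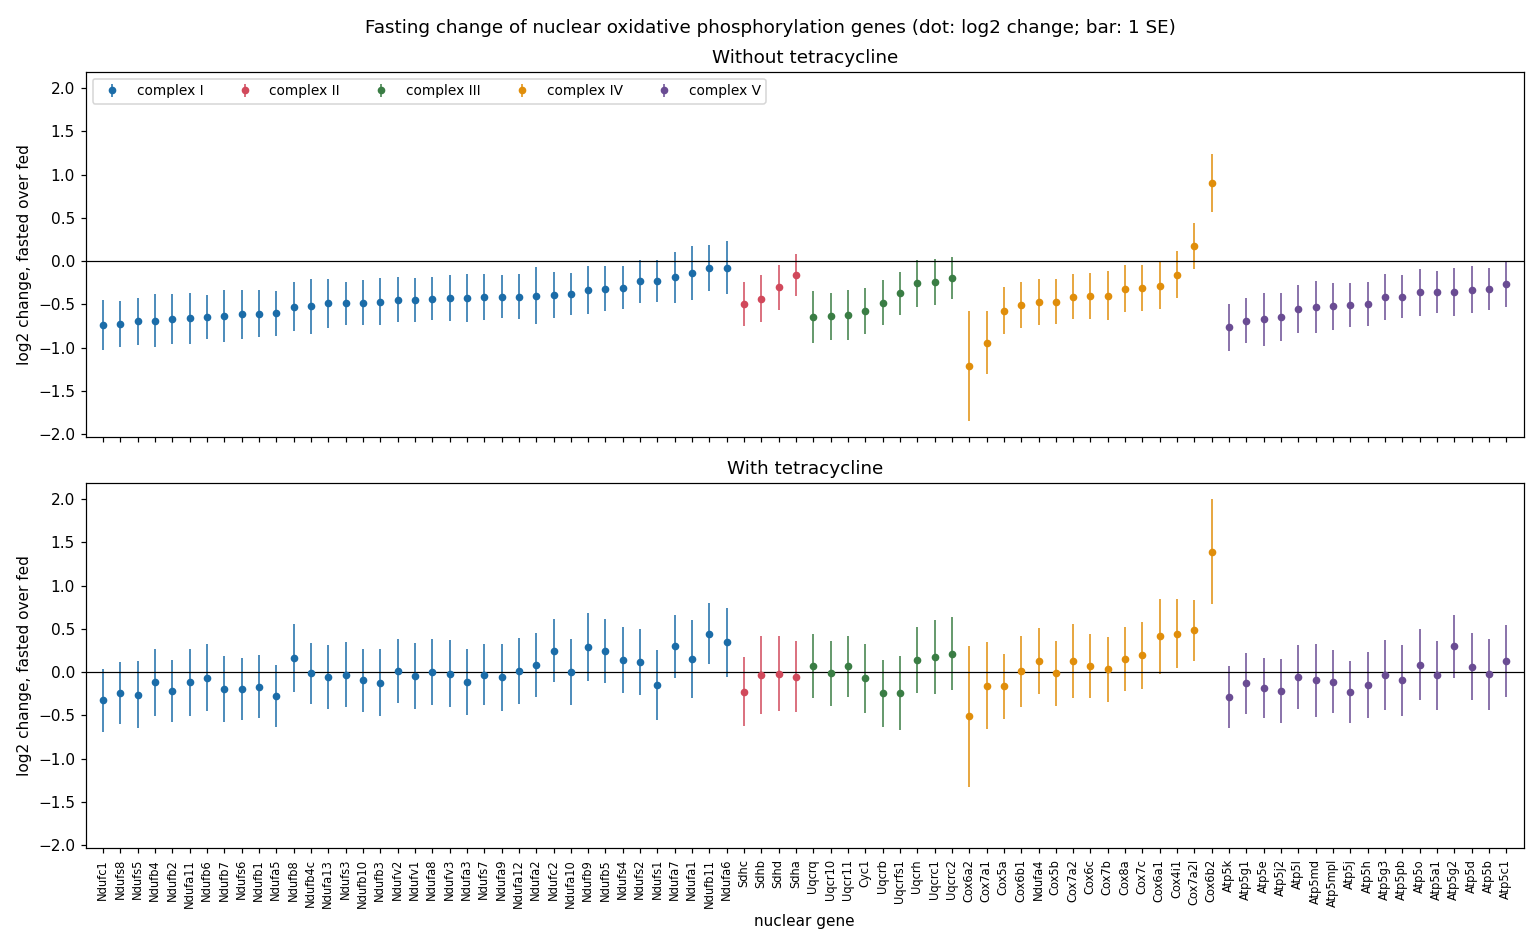
Log2 change, fasted over fed, of 82 nuclear oxidative phosphorylation genes in the authors' deposited tables without (top) and with (bottom) tetracycline; dots are genes coloured by complex and bars are 1 standard error. Without tetracycline 80 of 82 dots lie below 0, while with it 48 lie below and 34 above.

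Library by library, the fed side was uneven. Relative to each gene's mean over the 4 libraries, the median nuclear gene stood at -0.20 and -0.24 on the log2 scale in fasted libraries 1 and 2, at 0.02 in fed library 1 and at 0.40 in fed library 2. Fed library 2 was the highest of the 4 for 79 of 82 genes, and it is also the library with the highest erythrocyte, lymphocyte, myeloid and stroma sums. The 5 pancreatic acinar markers summed to 697 there, against 139 and 170 in the fasted libraries and 68.5 in fed library 1. The 4 muscle markers were highest in fasted library 2 (112, against 73.3 in fed library 2). The part of these cells in the changes was not tested. Both fasted libraries lay below both fed libraries for 69 of 82 genes, against 24.7% of all genes whose library counts were recovered, and both lay above for 1, Cox6b2, against 19.9%. Without fed library 2 the median change of the recovered counts moved from -0.43 to -0.25, with 73 of 82 genes still lower; without fed library 1 it was -0.61. The direction was thus the same against either fed library, while the size depended on fed library 2.

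**Figure D2:**
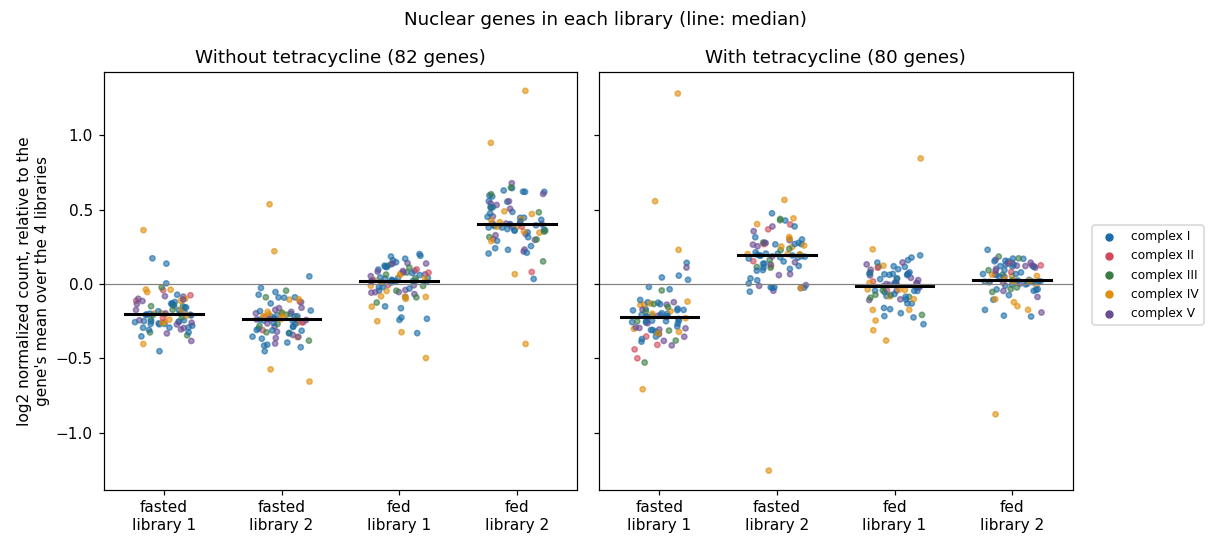
Log2 normalized count of each nuclear gene in each library relative to that gene's mean over the table's 4 libraries; points are genes coloured by complex and black lines are medians. Without tetracycline the medians are -0.20 and -0.24 (fasted) and 0.02 and 0.40 (fed); with tetracycline they are -0.22 and 0.20 (fasted) and -0.01 and 0.03 (fed).

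Complex I, which oxidizes NADH, had a negative change in all 37 of its nuclear rows with a mean of at least 50 without tetracycline. Their median was -0.44, and DESeq2 called 0 of them. In 30 of the complex I rows both fasted libraries lay below both fed ones, against 24.7% of all genes whose library counts were recovered. The 7 nuclear subunits of its catalytic core had a median of -0.44 and the 30 accessory rows, which stabilize and help assemble the complex, -0.45. Ndufs8, a core subunit that carries iron-sulfur clusters, had 4165 and 4732 normalized counts when fasted and 6550 and 8148 when fed. Both of its fasted libraries were lower than both fed ones, and its change in the authors' deposited table was -0.72 (SE 0.26, adjusted p 0.144). Ndufc1, an accessory subunit of the membrane arm, had 2801 and 2466 fasted and 3608 and 5185 fed, without overlap, and a change of -0.74 in the authors' deposited table (SE 0.29, adjusted p 0.202).

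At the other end of those 37 rows, 3 accessory subunits had the smallest changes, and their libraries overlapped. Ndufa6 had 9300 and 7471 normalized counts when fasted and 6726 and 10925 when fed, a change of -0.07 (SE 0.31) in the authors' deposited table. Ndufb11 had 6404 and 7217 fasted and 6221 and 8169 fed, and Ndufa1 3621 and 2609 fasted and 2731 and 4119 fed. In each of these 3 genes fed library 2 was the highest and fed library 1 lay below at least 1 fasted library. The row Ndufb4c, which GENCODE annotates as a processed pseudogene, had a mean of 3153 against 1641 for its parent gene Ndufb4, so reads may be split between these copies and neither level is certain.

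Complex II, succinate dehydrogenase, has no mitochondrially encoded subunit and joins the citric acid cycle to the respiratory chain. Its flavoprotein Sdha had 32925 and 31194 normalized counts when fasted and 35716 and 35823 when fed without tetracycline, and a change of -0.16 in the authors' deposited table (SE 0.24, adjusted p 0.925). The iron-sulfur subunit Sdhb had 15802 and 13783 fasted and 17361 and 22532 fed. Of the membrane anchors, Sdhc had 13040 and 12799 fasted and 16378 and 20005 fed, and Sdhd 21422 and 19359 fasted and 22462 and 27834 fed. For all 4 genes both fasted libraries lay below both fed ones, as they did for 24.7% of all genes. The 4 changes ran from -0.49 (Sdhc) to -0.16 (Sdha), with a median of -0.37.

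In complex III, which hands electrons from ubiquinol to cytochrome c, all 9 nuclear subunits had negative changes (median -0.48). For 7 of them both fasted libraries lay below both fed ones, as they did for 24.7% of all genes. Cyc1, the cytochrome c1 subunit, had 21549 and 20284 normalized counts when fasted and 26810 and 35494 when fed, with a change of -0.57 in the authors' deposited table (SE 0.27, adjusted p 0.363). The 5 small subunits Uqcrb, Uqcrh, Uqcrq, Uqcr10 and Uqcr11 had a median of -0.62 and ran from -0.64 to -0.25 (Uqcrh). For Uqcrc1 and Uqcrc2, the large core subunits without a redox centre, the median was -0.22. These groups were chosen after values were seen, and the difference between them was not tested. Uqcrq, with the most negative change of the complex, had 11538 and 10357 fasted against 13073 and 21143 fed. The redox subunit Uqcrfs1, the Rieske iron-sulfur protein, had a change of -0.37 (SE 0.25).

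Complex IV, cytochrome c oxidase, was the least uniform, and of the 82 nuclear genes summarized it held both that were higher in fasted crypts. Of its 15 rows with a mean of at least 50, 13 were lower and the median was -0.40. Cox6b2, an isoform known mainly from testis, had 294 and 332 normalized counts when fasted and 162 and 173 when fed, with a change of 0.91 (SE 0.33, unadjusted p 0.00685, adjusted p 0.160) in the authors' deposited table. Its common partner Cox6b1 had 15411 and 15669 fasted and 19219 and 24959 fed, so the sides of these paralogs were ordered in opposite ways, each without overlap. Cox7a2l had 13896 and 16628 fasted and 11999 and 14941 fed, an overlapping pair of sides with a change of 0.18 in the authors' deposited table (SE 0.27, adjusted p 0.919).

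Among the 82 nuclear genes summarized, the heart and muscle isoforms of complex IV had the most negative changes. Cox6a2 was scarce, at 41.3 and 36.6 normalized counts when fasted and 43.7 and 137 when fed, and its change in the authors' deposited table, -1.21 (SE 0.63, adjusted p 0.477), rested on fed library 2. Cox7a1 had 2459 and 1806 fasted against 2684 and 5498 fed, and -0.94 in the authors' deposited table (SE 0.36, adjusted p 0.200). Fed library 2 alone was high for both, while fed library 1 lay close to the higher fasted library. Their common partners Cox6a1 and Cox7a2 had changes of -0.29 and -0.41, Cox4i1 -0.15, Cox7b -0.40, Cox8a -0.32 and Ndufa4, a subunit now assigned to complex IV, -0.47. The 4 muscle markers did not exceed 112 normalized counts in sum in any library of that table, and fed library 2 held 73.3.

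ATP synthase had a negative change in all 17 rows with a mean of at least 50 (median -0.49). In all 17 both fasted libraries lay below both fed ones, as they did for 24.7% of all genes. Atp5k, the e subunit of the membrane sector, had 5030 and 5099 normalized counts when fasted and 7218 and 9986 when fed, with a change of -0.76 (SE 0.27) and the smallest adjusted p of the module, 0.135, in the authors' deposited table. The 5 subunits of the membrane sector and its attachments, Atp5j2, Atp5k, Atp5l, Atp5md and Atp5mpl, had a median of -0.55 and the 5 of the catalytic F1 head, Atp5a1, Atp5b, Atp5c1, Atp5d and Atp5e, -0.33. The F1 head ran from -0.67 (Atp5e) to -0.27, and the difference between these groups, chosen after values were seen, was not tested. Atp5b, the catalytic beta subunit and the most abundant nuclear gene of the module by mean, had 120369 and 116081 fasted against 140443 and 155199 fed. Of the 3 genes for the c-ring, whose mature proteins are the same, Atp5g1 had -0.69, Atp5g3 -0.41 and Atp5g2 -0.36.

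The mitochondrially encoded genes had smaller changes than most nuclear ones without tetracycline, a contrast that was not tested. Of the 13, 12 had a negative change in the authors' deposited table, with a median of -0.19 and a range from -0.57 to 0.02, and every 95% interval held 0. By the authors' DESeq2 test 0 were called and 0 had an unadjusted p under 0.05. The genes for complex I subunits had -0.34 (mt-Nd2), -0.33 (mt-Nd6), -0.29 (mt-Nd1), -0.18 (mt-Nd3), -0.10 (mt-Nd4), -0.08 (mt-Nd4l) and 0.02 (mt-Nd5). For mt-Cytb of complex III the change was -0.16, and for the catalytic core of complex IV -0.15 (mt-Co1), -0.57 (mt-Co2) and -0.25 (mt-Co3). The proton channel of ATP synthase, mt-Atp6, had -0.23 and mt-Atp8 -0.19.

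The precision was not alike among these genes: the standard error was 0.87 for mt-Co2 and 0.30 to 0.36 for the other 12, so the value of mt-Co2 is the least certain. Library counts were recovered for 2 of them. Without tetracycline mt-Nd3 had 51145 and 87851 normalized counts when fasted and 57309 and 100151 when fed, and mt-Nd6 10398 and 20208 fasted and 18916 and 19518 fed. In both genes the libraries of 1 side differed by more than the sides did. Reads of mt-Nd6, the only protein gene on its strand, cannot be told from those of the opposite strand, because the library kit does not keep strand, and mt-Atp8 with mt-Atp6, and mt-Nd4l with mt-Nd4, overlap on the genome. Per kilobase of exon, mt-Co3 had the highest mean of the 13, at 1624405 normalized counts, and mt-Nd6 the lowest, at 33257, beside 33367 for Cox8a, the highest nuclear gene on that scale.

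**Figure D3:**
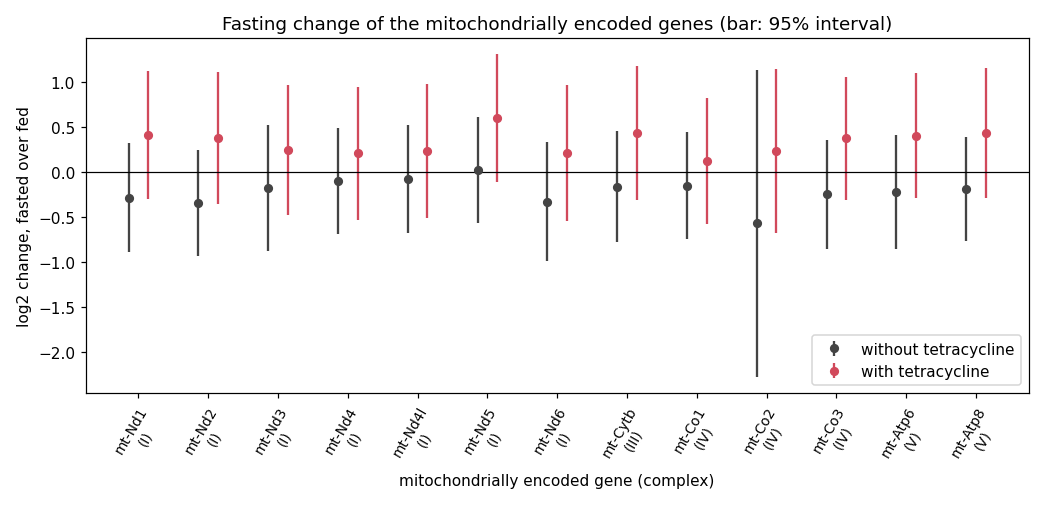
Log2 change, fasted over fed, of the 13 mitochondrially encoded protein genes in the authors' deposited tables, without (grey) and with (red) tetracycline; bars are 95% intervals. Every interval holds 0, 12 of 13 values without tetracycline are below 0, and all 13 with it are above 0.

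In mice given tetracycline, the nuclear genes did not share a direction. Of 82 with a mean of at least 50, 48 were lower and 34 higher in fasted crypts (51.3% and 48.7% of all genes with that mean), with a median of -0.03, against -0.01 over all genes, and 68 of them lay within 0.25 of no change. By the authors' DESeq2 adjusted p 0 were called, where 0.6% of all genes tested were called, and at an unadjusted p under 0.05 there were 0 lower and 1 higher, against 3.41% and 2.51% of all genes with a mean of at least 50. Standard errors were larger than in the other table, with a median of 0.38. The medians by complex were -0.03 for complex I, -0.04 for complex II, 0.07 for complex III, 0.13 for complex IV and -0.09 for ATP synthase. Complex IV had 11 of 15 genes higher, while ATP synthase had 13 of 17 lower.

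Those medians averaged over a pair of fasted libraries that lay on opposite sides of the fed ones. The median nuclear gene stood at -0.22 in fasted library 1 and at 0.20 in fasted library 2, with -0.01 and 0.03 in the fed libraries. Fasted library 2 was the highest of the 4 for 57 of 80 genes with recovered counts, and it held the lowest erythrocyte, lymphocyte, myeloid, stroma, Paneth, stem cell and proliferation sums of that table. The 2 enterocyte markers with recovered counts summed to 155176 in fasted library 1 and 272496 in fasted library 2, against 128500 and 132802 in the fed libraries. The part of these cell types in the split of the fasted libraries was not tested. Both fasted libraries lay below both fed ones for 12 of 80 genes and above them for 7, against 15.3% and 15.6% of all genes. Without fasted library 1, 16 of 80 genes were lower (median 0.18), and without fasted library 2, 69 were (median -0.25).

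Cox6b2 again had the most positive change of the 82 nuclear genes summarized, with 393 and 158 normalized counts when fasted and 124 and 87.4 when fed. Its sides did not overlap in either table, and with tetracycline its change was 1.39 (SE 0.61, unadjusted p 0.0221, adjusted p 0.755) in the authors' deposited table. Cox7a2l had 17454 and 17733 fasted against 11997 and 13196 fed, without overlap, and 0.48 (SE 0.35). Cox4i1 (0.45, SE 0.40), Ndufb11 (0.44, SE 0.35) and Cox6a1 (0.42, SE 0.43) followed in the authors' deposited table. For Ndufb11 the libraries were 7762 and 8657 fasted against 5831 and 6233 fed, whereas for Cox6a1 they were 19192 and 32634 against 18596 and 20258, so that its change rested on fasted library 2.

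Of those 82, the most negative changes with tetracycline were those of Cox6a2 (-0.51, SE 0.82), Ndufc1 (-0.33, SE 0.37), Atp5k (-0.29, SE 0.36), Ndufa5 (-0.27, SE 0.36) and Ndufs5 (-0.26, SE 0.39) in the authors' deposited table. Ndufc1 had 2640 and 3218 normalized counts when fasted and 3701 and 3638 when fed, and Atp5k 5077 and 5979 against 6738 and 6732. Both were below in each fasted library, as they were without tetracycline. For complex II, Sdha had 27055 and 41620 fasted and 33532 and 37693 fed, so that both fed libraries lay between the fasted ones, as they also did for Sdhb, Sdhc and Sdhd. Cyc1 had 20442 and 30078 fasted and 26314 and 26807 fed.

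The mitochondrially encoded genes all had positive changes with tetracycline, from 0.12 to 0.60 with a median of 0.37, although every 95% interval held 0 and by the authors' DESeq2 test 0 were called and 0 had an unadjusted p under 0.05. The largest was mt-Nd5 (0.60, SE 0.36, unadjusted p 0.0957), and the others of complex I had 0.41 (mt-Nd1), 0.38 (mt-Nd2), 0.24 (mt-Nd3), 0.23 (mt-Nd4l), 0.21 (mt-Nd4) and 0.21 (mt-Nd6) in the authors' deposited table. For mt-Cytb it was 0.43, for mt-Co1 0.12, for mt-Co2 0.24, for mt-Co3 0.37, for mt-Atp6 0.40 and for mt-Atp8 0.43. Library values were recovered again for mt-Nd3, at 68787 and 54331 normalized counts fasted and 54092 and 50167 fed, and for mt-Nd6, at 17291 and 14295 fasted and 11855 and 15503 fed. Fasted library 1 was the higher of its side in both, whereas it was the lower one for most nuclear genes. The mitochondrial ribosomal RNAs kept their sign between the tables: mt-Rnr1 had -0.40 without and -0.49 with tetracycline, and mt-Rnr2 0.06 and 0.15, in the authors' deposited tables.

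The fasting changes of the tables were compared gene by gene, as the change with tetracycline minus the change without it. The difference was positive for all 82 nuclear genes (53.6% of all genes with a mean of at least 50 in both tables were positive), with a median of 0.43 against 0.03 over all those genes. It was positive for all 13 mitochondrially encoded genes, with a median of 0.60. The Wald test with Benjamini-Hochberg adjustment over 17571 genes called 0 nuclear and 0 mitochondrially encoded genes, where 0.0228% of all genes were called, and 0 of either had an unadjusted p under 0.05, against 0.978% of all genes with a mean of at least 50 in both tables. The median standard error of a nuclear gene's difference, 0.47, was larger than the median difference. The smallest p was 0.130, for Uqcr11 (0.69, 95% interval -0.20 to 1.59). Over all genes tested the Wald statistic had a robust SD, taken from its median absolute value, of 0.71. That is narrower than the normal distribution the test assumes, so its p-values are conservative. With the statistic divided by that SD, 0 nuclear and 0 mitochondrially encoded genes were called.

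All members were read in the same 8 libraries, so their common sign is not a count of independent results. Fed library 2 without tetracycline and fasted library 2 with tetracycline were also left out together, a choice made after seeing the data. The difference was then positive for 44 of 80 nuclear genes and its median was 0.015. These libraries were picked as the highest of their tables for these genes, so leaving them out lowers the difference by construction. No other pair was left out. With either one alone left out the median was 0.20 or 0.22 and 78 or 69 genes were positive. Among the 82 nuclear genes summarized the largest differences were those of Cox7a1 (0.78, SE 0.62), Uqcrq (0.72, SE 0.48), Cox6a1 (0.70, SE 0.51), Cox6a2 (0.70, SE 1.03) and Uqcr11. The smallest among them were those of Ndufs1, a core subunit of complex I (0.08, 95% interval -0.85 to 1.01), Sdha (0.11), Uqcrfs1 (0.13), Uqcrb (0.23) and Sdhc (0.27). Among mitochondrially encoded genes the difference ran from 0.27 (mt-Co1) to 0.81 (mt-Co2, SE 0.99).

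The order of the nuclear genes was alike in the tables although their level was shifted. The tables hold different libraries, and across 82 genes the changes with and without tetracycline had a Spearman correlation of 0.75, or 0.73 over the 79 genes left without Cox6b2, Cox6a2 and Cox7a1, against 0.53 across all genes with a mean of at least 50. Genes are not independent replicates, so these are descriptions. Of the 82 nuclear genes, 48 were lower in both tables, 32 were lower without and higher with tetracycline, and 2, Cox6b2 and Cox7a2l, were higher in both. Of the 13 mitochondrially encoded genes, 12 were lower without and higher with tetracycline, and mt-Nd5 was higher in both.

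**Figure D4:**
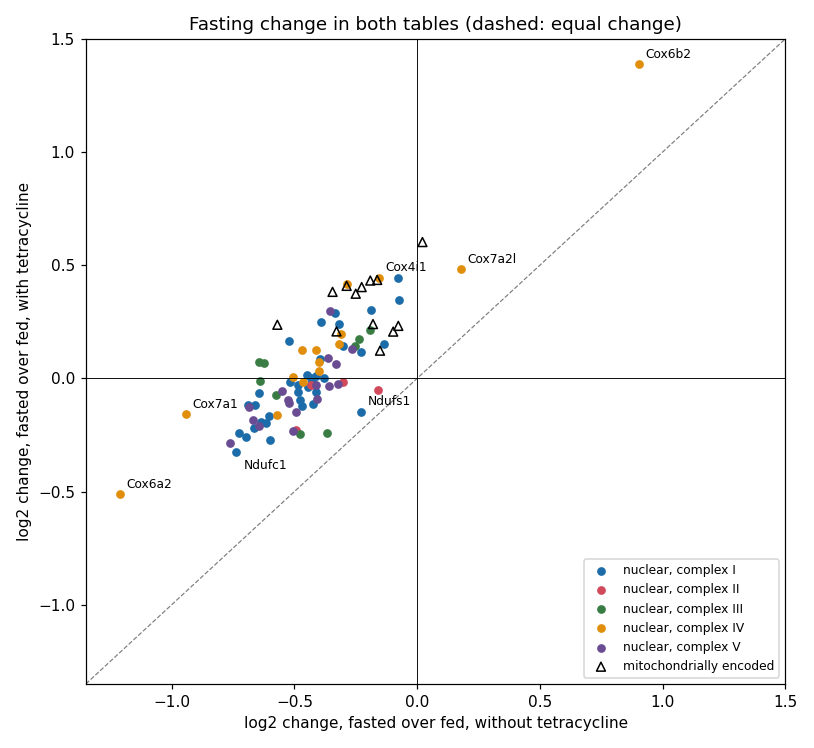
Log2 change, fasted over fed, without (x axis) against with (y axis) tetracycline for 82 nuclear genes (dots coloured by complex) and the 13 mitochondrially encoded genes (open triangles). All points lie above the dashed line of equal change, and Cox6b2 and Cox7a2l are the 2 nuclear genes to the right of 0.

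Levels were also set side by side across the tables, which were scaled separately, so that no test was made. After centring on the median of all genes, fed crypts had a lower level with tetracycline for all 82 nuclear genes (median log2 ratio -0.33) and all 13 mitochondrially encoded genes (median -0.55), while 7445 of 13194 genes were lower over all (median -0.04). In fasted crypts the level with tetracycline was higher for 78 of 82 nuclear genes (median 0.13) and for 7 of 13 mitochondrially encoded genes (median 0.03, or 0.09 without centring), while 6751 of 13194 genes were higher over all (median 0.0058), so that the mitochondrial share is near that of all genes. On recovered counts the nuclear median in fed crypts was -0.29, and without fed library 2 of the table without tetracycline it was -0.07, with 61 of 80 genes lower. Without fed library 1 of that table it was -0.50, with 79 of 80 genes lower. In fasted crypts the nuclear median was 0.12, and without fasted library 2 of the table with tetracycline it was -0.05, with 27 of 80 genes higher. Without fasted library 1 of that table it was 0.29, with 78 of 80 genes higher.

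Nuclear members with a mean under 50 in at least 1 table were pseudogene rows, tissue-restricted isoforms and a second row named Atp5o, and none gives a usable change. Cox4i2, the lung isoform of subunit 4, had 0.917 and 0 normalized counts when fasted and 0 and 3.01 when fed without tetracycline, against a mean of 36467 for Cox4i1. Ndufa4l2, the hypoxia-linked relative of Ndufa4, had 0 and 5.38 fasted and 1.98 and 3.01 fed without tetracycline. The pseudogene rows Ndufa12-ps, Atp5l2-ps, Atp5k-ps2 and Cox6c2 had means of at most 7.64 in either table. The muscle isoform Cox8b, at a mean of 0.394, and the second Atp5o row, at 1.08, were listed with tetracycline alone, and Cox7b2 and Cox8c in neither table.

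Lists of other mitochondrial genes are given as counts over their genes with a mean of at least 50. Of all genes with that mean, 52.2% were lower without and 51.3% with tetracycline. At an unadjusted DESeq2 p under 0.05, 6.97% of them were lower and 5.31% higher without tetracycline, and 3.41% and 2.51% with it. DESeq2 called 2.27% and 0.6% of all genes tested. Mitochondrial ribosomal proteins, which help make the mitochondrially encoded subunits, were lower for 78 of 79 genes without tetracycline (median -0.39, DESeq2 calls 0, unadjusted p under 0.05 for 20) and for 34 of 79 with it (median 0.03, 0 called, 0 at an unadjusted p under 0.05). Assembly factors of the complexes were lower for 49 of 52 without (median -0.28) and 30 of 52 with tetracycline (median -0.02). In that list 1 of 52 genes was called in the authors' deposited table without tetracycline, a share no higher than the 2.27% of all genes tested. It was Cmc2, a complex IV assembly factor named after its values were seen, at 405 and 461 normalized counts fasted against 790 and 865 fed (-0.93, SE 0.28, adjusted p 0.0461).

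Enzymes of the citric acid cycle were lower for 13 of 13 without tetracycline (median -0.19) and 6 of 13 with it (median 0.07), and DESeq2 called 0 in either, with 1 and 0 at an unadjusted p under 0.05. The mitochondrial transcription and genome maintenance genes had medians of -0.03 and 0.11 over 17 genes, and 10 regulators of mitochondrial genes, among them Ppargc1a, Nrf1, Gabpa, Esrra and Yy1, had medians of 0.03 and -0.05, with 0 calls by DESeq2 and 0 at an unadjusted p under 0.05 in both lists and tables. Over 14 electron carriers and partners outside the rule the medians were -0.13 and 0.13. Among these the acyl carrier Ndufab1, a further complex I subunit, had -0.59 and -0.20 and cytochrome c, Cycs, -0.54 and -0.53, while Etfdh, which feeds electrons from fatty acid oxidation into ubiquinone, had 0.51 and 0.65, and none of these was called. Of 10 mitochondrial stress genes, 7 were lower and 3 higher without tetracycline (median -0.15), and 4 lower and 6 higher with it (median 0.03). Of those 10 genes, DESeq2 called 1 without tetracycline, where 2.27% of all genes tested were called, and the difference between these shares was not tested. It was Atf5, a transcription factor of that response, named after its values were seen. Atf5 had 1866 and 1592 normalized counts fasted against 836 and 844 fed. Its deposited log2 change was 1.04 (SE 0.27), with a DESeq2 adjusted p of 0.0072, while 7 genes of the list were lower.

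Cytosolic ribosomal protein genes, another large set of short and abundant nuclear messages, were looked at after the results were seen and lay the other way. They were higher in fasted crypts for 71 of 78 genes without tetracycline (median 0.14) and for 76 of 78 with it (median 0.61), with 0 called by DESeq2 in either table and 0 and 3 at an unadjusted p under 0.05. Their library medians without tetracycline were -0.23 and 0.33 fasted and -0.15 and 0.05 fed over the 56 genes with recovered counts, so that fed library 2, the highest for oxidative phosphorylation genes, was not the highest for them. With tetracycline, fasted library 1 stood at 0.58 for ribosomal protein genes and at -0.22 for oxidative phosphorylation genes. The difference between the sets was not tested.

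Promoters were examined because nearly all nuclear members had the same sign without tetracycline. RefSeq promoters (assembly GRCm38.p6, 250 bases before to 50 after each gene's start) matched 68 nuclear member symbols, and 4 motifs of factors known for respiratory genes were searched as exact letters on both strands: GCGCATGCG for NRF1, CCGGAAG for the ETS family that includes GABP, AAGATGGC for YY1 and TCAAGGTCA for ESRRA. NRF1 letters can match both strands in overlapping positions and were then counted once. The NRF1 letters were in 8 of 68 promoters (11.8%), against 1.95% of 27025 genes' promoters, and the ETS letters in 17 (25%) against 9.93%. YY1 letters were in 10 (14.7%) against 3.19%, and ESRRA letters in 2 (2.94%) against 0.466%. The promoters of all genes were not matched to the members for expression or base composition. These shares are therefore descriptions, and an excess particular to the members was not tested. Without tetracycline the median changes of members with and without a motif were -0.49 over 31 genes and -0.41 over 36 for any of the 4 motifs, a difference that was not tested. By motif they were -0.49 and -0.43 for NRF1, -0.51 and -0.42 for ETS, -0.46 and -0.43 for YY1 and -0.36 and -0.44 for ESRRA.

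The following promoters are shown with every match in capitals: Atp5k and Ndufc1, with the most negative changes of ATP synthase and complex I, Uqcr11, with the smallest p for the difference, and Cox7a2l, which was higher in fasted crypts in both tables. Atp5k lies on the minus strand at chr5:108434350-108434649 and holds NRF1 and ETS letters, Uqcr11 on the minus strand at chr10:80406772-80407071 and holds both as well, Ndufc1 on the minus strand at chr3:51408906-51409205 and holds YY1 letters, and Cox7a2l on the minus strand at chr17:83514284-83514583, where none of the 4 motifs was found. A match is only a match of letters, and binding was not measured.
Atp5k: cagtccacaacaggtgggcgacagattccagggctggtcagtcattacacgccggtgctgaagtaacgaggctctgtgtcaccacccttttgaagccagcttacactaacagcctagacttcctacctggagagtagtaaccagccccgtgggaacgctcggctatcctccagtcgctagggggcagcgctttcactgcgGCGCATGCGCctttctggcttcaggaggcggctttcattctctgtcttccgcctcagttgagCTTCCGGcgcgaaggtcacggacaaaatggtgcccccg
Uqcr11: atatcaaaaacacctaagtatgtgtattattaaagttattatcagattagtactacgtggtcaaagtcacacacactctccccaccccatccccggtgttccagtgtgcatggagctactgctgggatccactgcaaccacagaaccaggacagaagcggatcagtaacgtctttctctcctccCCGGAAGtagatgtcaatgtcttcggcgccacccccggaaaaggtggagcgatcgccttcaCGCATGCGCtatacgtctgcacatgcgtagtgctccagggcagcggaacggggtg
Ndufc1: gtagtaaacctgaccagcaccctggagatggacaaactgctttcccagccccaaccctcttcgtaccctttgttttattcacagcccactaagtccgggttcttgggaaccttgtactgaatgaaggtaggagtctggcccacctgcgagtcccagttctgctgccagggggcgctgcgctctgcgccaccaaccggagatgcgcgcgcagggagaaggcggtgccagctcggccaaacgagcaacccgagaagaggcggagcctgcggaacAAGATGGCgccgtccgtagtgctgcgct
Cox7a2l: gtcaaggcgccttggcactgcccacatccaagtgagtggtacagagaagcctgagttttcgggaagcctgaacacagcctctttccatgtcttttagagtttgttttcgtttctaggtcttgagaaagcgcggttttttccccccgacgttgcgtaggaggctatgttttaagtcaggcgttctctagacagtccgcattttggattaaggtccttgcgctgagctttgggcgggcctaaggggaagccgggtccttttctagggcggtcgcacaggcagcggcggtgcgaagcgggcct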

How the data were processed

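RNA-seq libraries of mouse small-intestinal crypts were compared, fasted with fed, in a separate table for each tetracycline state. The submitters' processing notes name Salmon, DESeq2 and mm10, with versions not given in the sources used here. Per the file headers, each deposited row holds a mean normalized count (a signal over the libraries), a log2 fold change with its standard error, a Wald statistic (a score), a p-value and an adjusted p-value, all computed by the authors. With 1 labelled sample a group, no count test was run here, and the p-values measure only the spread between the libraries the authors used, which may be technical. The files held 0 per-sample columns, so 0 were left unused.

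Whole counts in 2 fasted and 2 fed libraries of each table were recovered by finding the integers and size factors that give the deposited means. A set of counts was kept only if it also gave the deposited log2 change within a tolerance, with the deposited standard error used in that step. They were found for 13205 of 13213 genes tried without and 13437 of 13450 with tetracycline. The log2 changes they give lay a median of 3.6e-10 and 2.7e-09 from those deposited, which is no separate check because closeness was required. These libraries were used as values, with no SD and no test. Summed over genes, the deposited means came to 65863261 normalized counts without and 65327199 with tetracycline.

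The difference between the tables' changes was tested with a Wald statistic from the deposited log2 changes and standard errors over 17571 genes, with Benjamini-Hochberg adjustment and a threshold of 0.05 (Python 3.11.15, numpy 2.4.6, pandas 2.3.3, scipy 1.17.1), a step tested on simulated data. Summaries use genes with a mean of at least 50, and levels across tables a pseudocount of 1. The genes named were the 13 mitochondrial genes, the 5 most negative and 5 most positive nuclear members of each table and of the difference, Sdha to Sdhd, Cyc1, members with a mean under 50, and tissue-restricted isoforms with their common partners. Atp5b, the c-ring genes, Ndufb4 with Ndufb4c, Uqcrc1, Uqcrc2, the genes named from the pathway lists, and the grouping of subunits by role were chosen after values were seen. The members and lists were chosen with earlier results of these data known. Alternatives were other thresholds, filters, adjustments and centrings, for levels no centring and a pseudocount of 10, leaving out pseudogene rows, and leaving out each library. For the difference, leaving out libraries was added after seeing the data.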

Additional observations from a re-analysis of the deposited data

How the results depend on the processing

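Of 102 alternative values, 2 were counts that moved beyond the limit set for counts. Medians were held to the median standard error, and those that crossed 0 or neared it are given here. Without tetracycline, leaving out each library in turn gave 73 to 80 nuclear genes lower and a median change from -0.61 to -0.25. With tetracycline the same gave 16 to 69 of 80 genes lower (47 with all libraries) and a median from -0.25 to 0.18 (-0.03 with all libraries), which was above 0 without fasted library 1 (0.18) and without fed library 2 (0.0060), so no direction of the nuclear genes is given for that table. For the difference between the tables, leaving out each library gave 69 to 80 of 80 genes positive and a median from 0.20 to 0.63, and leaving out fed library 2 without and fasted library 2 with tetracycline together gave 44 of 80 and a median of 0.015 in place of 0.43; the cause was not tested. Centring on the median of all genes moved changes by 0.02 and 0.01, and other thresholds (0.01 and 0.10), filters, adjustments and the removal of pseudogene rows called 0 members in either table. No paired analysis was possible because the tables hold no per-sample columns and the libraries behind them carry no replicate numbers.

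Nuclear genes with a mean of at least 50 had means from 64.5 to 133023 normalized counts without tetracycline. The median standard error of a nuclear gene was 0.27 without and 0.38 with tetracycline. Library values were recovered for only 2 of the 13 mitochondrially encoded genes, so the role of single libraries in the others was not tested.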
